A study of Mus musculus with 908 samples.

Results

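Tumour cells that carried the reporter, CD34 and CD44 were set against tumour cells of the same integrin α6+ compartment that carried none of these, before any therapy, in mouse skin squamous cell carcinoma. The comparison took 73 reporter-positive cells of plate CSC1, 32 of plate CSC2 and 91 CD44-negative α6+ cells of plate DN. The whole series had 908 sequenced wells, of which 696 passed the filter applied here, 2000 or more genes detected (TPM of 1 or more). TPM is a length-normalised share of a library's transcripts. Both gates came from mice with the strain name TRE-HrasG12V;SBE-mCherry-PGK-rtTA3, aged P60-P90 and of mixed sex, and were taken before adoptive cell transfer (ACT), an immunotherapy by infused immune cells. In this strain a tetracycline-response element (TRE), on which the transactivator rtTA3 acts, controls an activated HRAS. A SMAD-binding element (SBE) drives mCherry, a readout of TGF-beta signalling. The reporter-positive gate was integrin α6+, mCherry+, CD34+ and CD44+, and the other gate was integrin α6+, mCherry-, CD34- and CD44-. Both gates excluded cells with CD45, CD117, CD140a or CD31 at the surface. Each well held a single cell, and full-length cDNA was made by the Smart-seq2 protocol. No label names an animal or culture, so each gate was treated as 1 sample, and no test, standard error or p-value could be computed between them. Gate, plate and the animals behind them cannot be told apart.

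Integrin α6 marks the layer of keratinocytes that touches the basement membrane, the layer from which squamous carcinomas grow. Activated RAS signals through the MAP kinase cascade, and the EGF family of secreted or shed ligands feeds the same cascade through the receptor EGFR. TGF-beta, read here by the reporter, holds back keratinocyte division and is linked in skin carcinoma to invasion and to cells that start new tumours. The genes below were sought outside the keratin, matrix and cell cycle genes by which such cells are usually described, and they are ordered by what their products do.

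Kept libraries had a median of 7769 detected genes on CSC1, 7575 on CSC2 and 6810.0 on DN, so reporter-positive libraries were the richer ones. TPM keeps no read depth, and intervals below are exact (Clopper-Pearson) 95% binomial intervals on shares of cells that cover counting error only. All 10 keratinocyte markers had a mean TPM of at least 1 in both gates, and Krt14 was detected in every cell of both gates. Of the markers of other cell types, those with a mean of at least 1 TPM in reporter-positive and in CD44-negative α6+ cells were 3 and 2 of 10 fibroblast markers, 3 and 2 of 8 pericyte or muscle markers, 2 and 2 of 8 endothelial markers, 1 and 0 of 10 immune markers, 2 and 2 of 6 Langerhans cell markers, 0 and 0 of 7 melanocyte markers, 2 and 2 of 6 Schwann cell markers and 1 and 0 of 6 sebocyte markers. Cd3e, Kdr, Tek, Cldn5, Dct, Tyrp1 and S100b were detected in no cell of either gate, and Ptprc, Dcn and Cdh5 in at most 2 cells of either. Other markers were found more widely, several of them in more reporter-positive cells. Pecam1, the gene of the excluded surface protein CD31, was detected in 54 reporter-positive and 10 CD44-negative α6+ cells at means of 8.04 and 1.25 TPM, Egfl7 in 38 reporter-positive and 15 CD44-negative α6+ cells, Ngfr in 30 reporter-positive and 14 CD44-negative α6+ cells, Tyr in 23 reporter-positive and 8 CD44-negative α6+ cells and Cidea in 18 reporter-positive and 0 CD44-negative α6+ cells. Acta2 was detected in 47 reporter-positive and 25 CD44-negative α6+ cells, Notch3 in 75 reporter-positive and 53 CD44-negative α6+ cells, Fbln1 in 82 reporter-positive and 83 CD44-negative α6+ cells and Mbp in 70 reporter-positive and 60 CD44-negative α6+ cells. The part of such cells in the differences below was not tested. Of the gated genes, Cd34 averaged 5.46 TPM in reporter-positive and 0.553 TPM in CD44-negative α6+ cells, and Cd44 372.3 and 139.4 TPM, with Cd44 detected in every cell of both gates.

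Some features of the libraries bear on every value. By correlation of whole profiles, 72 of 73 libraries on CSC1 and 25 of 32 on CSC2 had a repeat partner on plates labelled after transfer. No DN library did. Pairs across the labels had a median Pearson r of 0.94, so most were near-identical. The r ran from 0.89 to 0.96 for CSC1 and from 0.69 to 0.96 for CSC2. Mutual best matches were taken at any r, so a pair of low r may not be a repeat. Which label is right for these cells was not settled by the files. With the 97 partners in place of the reporter-positive libraries, all 30 genes of the ranking below stayed at least 2-fold apart in the same direction. Most partners are near-identical to the libraries that chose these genes, so this outcome was close to fixed in advance. It does not bear on which label is right. The 8 reporter-positive libraries without a partner, also part of the ranking, were poorer, with a median of 3648 genes. In them 27 of the 30 genes stayed at least 2-fold apart. Pairs by the same rule were also found within the reporter-positive gate, 1 for CSC1 and 5 for CSC2. Counts of cells and their intervals took each library of such a pair as a separate cell, so some cells may be counted more than once. Intervals for the reporter-positive gate, and CSC2 counts most of all, are to be read with this limit. With repeats within a plate merged, all 30 genes stayed at least 2-fold apart. Xist, transcribed from the inactive X chromosome of female cells, was detected in no reporter-positive cell and in 43 CD44-negative α6+ cells, and Y-linked transcripts in 71 of 73 cells on CSC1, 28 of 32 on CSC2 and 45 of 91 on DN. The CD44-negative α6+ plate thus held cells with Xist and cells with Y-linked transcripts, in near equal numbers. The reporter-positive plates held no cell with Xist, although both gates are described as of mixed sex. Named genes whose call ended against either subset are given with their values at the end.

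Among 11879 genes with a mean of at least 1 TPM in either gate, 1164 (9.8%) were at least 2-fold higher in reporter-positive cells and 568 (4.78%) at least 2-fold lower. A fold here is the ratio of mean TPM, each plus 1, of reporter-positive over CD44-negative α6+ cells, so it understates differences of weakly expressed genes. On both CSC1 and CSC2 against DN, 4.33% of these genes were at least 2-fold higher and 3.45% at least 2-fold lower. With TPM rescaled to leave out ribosomal and spike-in rows, 747 genes were higher and 986 lower on both plates, and the median log2 fold was 0.03 on CSC1 and -0.21 on CSC2, against 0.04 and 0.05 on the deposited scale. The median log2 fold on CSC2 was thus higher on the deposited scale than on the rescaled one, while some single genes went the other way, such as Plaur with 2.35 on the deposited and 3.02 on the rescaled scale. The median log2 fold over all these genes was 0.07. To find differences that most cells share, annotated genes outside the usual lists were ranked by the smaller, over both plates, of the difference in mean log2(TPM + 1). The 15 highest were Upp1, Fbln2, Plin2, Tubb2a, Sult2b1, Gsta4, Tnfrsf23, Fxyd5, Phlda2, Crabp2, Atg9b, Hspb1, Plet1, Pxdn and Hbegf. The 15 lowest were Apoe, Fgfr3, Sostdc1, Gstm1, Apoc1, Scpep1, Serpina3h, Capns2, Gstm2, Gas1, Cd109, 2610528A11Rik, Slc16a14, Mgst1 and Acpp. Their values chose them and are given as a description.

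**Figure D1:**
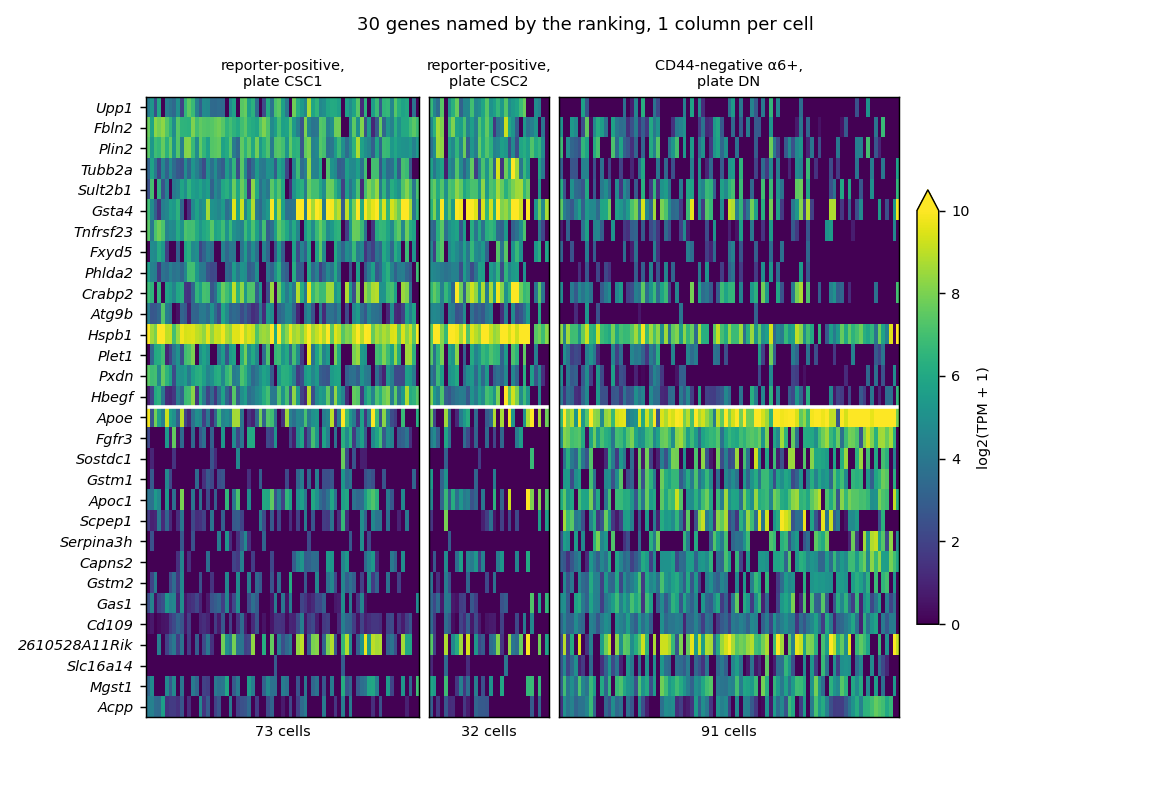
Heat map of log2(TPM + 1) of the 30 ranked genes (rows) in each cell (columns, ordered within a plate from most to fewest detected genes) on plates CSC1, CSC2 and DN. By their means, the upper 15 genes are brighter on both reporter-positive plates, with 73 and 32 cells, than on DN. The lower 15 are brighter on the 91 cells of DN. Brightness varies between genes and cells: Atg9b averages 3.07 on CSC1 and 2.75 on CSC2. Slc16a14 averages 2.50 on DN and was not detected in 32 cells there.

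**Figure D2:**
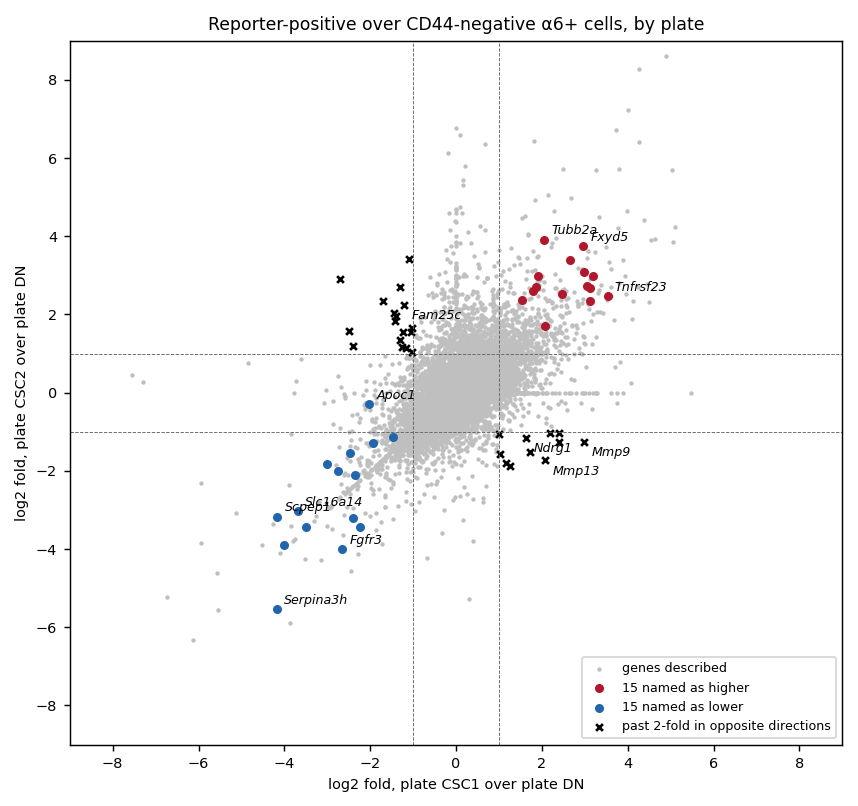
Log2 fold over plate DN of plate CSC1 (x axis) and plate CSC2 (y axis), 1 point per gene, with dashed lines at 2-fold. Most ranked genes are past the dashed lines on both axes, on the same side, with Apoc1 between the lines on CSC2 and Tubb2a, Fgfr3 and Serpina3h farther out on CSC2 than on CSC1, and crosses mark the 28 genes past 2-fold in opposite directions on the 2 plates.

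The gene at the head of the higher ranking was Upp1 (chr11:9118103-9136170, plus strand; build mm10, as all coordinates here), which encodes uridine phosphorylase, the enzyme that splits uridine into uracil and ribose phosphate. Its level ran from 0 to 396.98 TPM with a median of 31.7 on CSC1, from 0 to 209.3 with a median of 32.3 on CSC2, and from 0 to 95.5 with a median of 0 on DN. Most reporter-positive cells thus held the transcript and most CD44-negative α6+ cells did not, although the ranges overlapped: it was detected in 64 of 73 and 27 of 32 reporter-positive cells on CSC1 and CSC2, and in 22 of 91 CD44-negative α6+ cells. These shares were 86.7% (78.6% to 92.5%) of reporter-positive and 24.2% (15.8% to 34.3%) of CD44-negative α6+ cells, and 91.4% and 26.1% among libraries of 6000 to 8000 genes. Means of 56.2 and 60.8 TPM on CSC1 and CSC2 and 6.27 TPM on DN gave log2 folds of 2.98 on CSC1 and 3.09 on CSC2. Atg9b, a member of the ATG9 family of lipid-moving proteins in autophagy, was nearest to being present in one gate and absent from the other. It was detected in 63 of 73 and 23 of 32 reporter-positive cells on CSC1 and CSC2, and in 5 of 91 CD44-negative α6+ cells, at means of 14.6 and 12.7 TPM on CSC1 and CSC2 and 0.722 TPM on DN (log2 folds 3.18 and 2.99). The gene overlaps Nos3 on the opposite strand, and the kit does not mark strand, so reads in the overlap cannot be told apart. Nos3 averaged 0.0201 and 0.0242 TPM in reporter-positive and CD44-negative α6+ cells. The wider-known family member Atg9a, looked up after these values were seen, averaged 12.6 and 9.73 TPM on CSC1 and CSC2 and 18 TPM on DN, on the other side of level.

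Several of the higher genes handle lipids, retinoids or reactive aldehydes. Plin2, which coats lipid droplets, ran from 5.18 to 435.8 TPM with a median of 79.5 on CSC1, from 0 to 382.2 with a median of 42.1 on CSC2, and from 0 to 218.1 with a median of 4.26 on DN, so the ranges overlapped while the medians lay far apart. It was detected in 73 of 73 and 30 of 32 reporter-positive cells on CSC1 and CSC2, and in 51 of 91 CD44-negative α6+ cells, with log2 folds of 2.08 and 1.70. Sult2b1, which adds sulfate to cholesterol in the epidermis, averaged 79.6 and 142.5 TPM on CSC1 and CSC2 and 26.6 TPM on DN (log2 folds 1.55 and 2.38). Gsta4, a glutathione transferase that clears 4-hydroxynonenal, averaged 344.8 and 617 TPM on CSC1 and CSC2 and 93.6 TPM on DN, with medians of 65.8, 263.1 and 18.1 TPM on CSC1, CSC2 and DN, so that the means were set by a subset of cells. Crabp2, the carrier that delivers retinoic acid to its nuclear receptors, averaged 127.2 and 271.98 TPM on CSC1 and CSC2 and 33.3 TPM on DN (log2 folds 1.90 and 2.99). Hspb1, a small heat shock protein that binds unfolded proteins and actin, was detected in nearly all cells of both gates and was a difference of level, with means of 634 and 1116 TPM on CSC1 and CSC2 and 182.7 TPM on DN.

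Others are secreted or lie at the surface. Fbln2, a fibulin that bridges matrix proteins, was detected in 71 of 73 and 28 of 32 reporter-positive cells on CSC1 and CSC2, and in 44 of 91 CD44-negative α6+ cells, and its level ran from 0 to 313.2 TPM with a median of 89 on CSC1, from 0 to 586.97 with a median of 37.3 on CSC2, and from 0 to 186.9 with a median of 0.41 on DN (log2 folds 3.06 and 2.72). Pxdn, the peroxidasin that crosslinks collagen IV, averaged 41.2 and 23.4 TPM on CSC1 and CSC2 and 3.83 TPM on DN (log2 folds 3.13 and 2.34). Plet1, a surface protein known from progenitors of the mouse placenta and hair follicle, averaged 85 and 63.1 TPM on CSC1 and CSC2 and 8.96 TPM on DN (log2 folds 3.11 and 2.68). Fxyd5, a small partner of the sodium pump that loosens cell adhesion, was found in 56 of 73 and 24 of 32 reporter-positive cells on CSC1 and CSC2, and in 19 of 91 CD44-negative α6+ cells (log2 folds 2.96 and 3.75). Tnfrsf23, a mouse decoy receptor for the death ligand TRAIL, averaged 75.9 and 35.7 TPM on CSC1 and CSC2 and 5.65 TPM on DN (log2 folds 3.53 and 2.47). Phlda2, an imprinted gene that limits growth of the placenta, averaged 22.3 and 23.1 TPM on CSC1 and CSC2 and 3.22 TPM on DN (log2 folds 2.47 and 2.51). Tubb2a, a beta tubulin with close paralogs, averaged 37.1 and 137.3 TPM on CSC1 and CSC2 and 8.21 TPM on DN, with values of up to 1873 TPM in a cell of CSC2, where the median was 31.6 TPM. All 15 were past 2-fold on CSC1 and on CSC2.

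Promoters of the ranked genes were read because the genes were chosen as moving together and the gate rests on an SBE reporter. RefSeq windows (build GRCm38.p6, from 250 bases before to 50 after a gene's start) existed for 12 of the 15 higher genes, in 15 windows, and for 11 of the 15 lower genes, in 16 windows. The AP-1 motif TGANTCA, searched on both strands, occurred in 4 windows of 3 higher genes (Upp1, Sult2b1 and Plet1; the Upp1 windows overlap and hold the same site) and in 0 of the lower genes, against 7.81% of all 32851 windows. The SMAD-binding element GTCTAGAC, which is its own reverse complement, occurred in none of the windows of the 30 genes and in 0.213% of all windows. The antioxidant response element TGACNNNGC, searched on both strands, occurred in 0 windows of the higher genes and 3 of the lower genes, and in 12.4% of all windows. The windows with the AP-1 motif are shown 5′ to 3′ on the gene's strand with the motif in capitals. They lie at chr11:9117853-9118152 (plus strand) for Upp1, chr7:45742429-45742728 (minus strand) for Sult2b1 and chr9:50494275-50494574 (plus strand) for Plet1, and the motif lies upstream of the start that each window was built on. For Sult2b1, which spans chr7:45729983-45784669, minus strand, this is an alternative start inside the annotated gene.
Upp1: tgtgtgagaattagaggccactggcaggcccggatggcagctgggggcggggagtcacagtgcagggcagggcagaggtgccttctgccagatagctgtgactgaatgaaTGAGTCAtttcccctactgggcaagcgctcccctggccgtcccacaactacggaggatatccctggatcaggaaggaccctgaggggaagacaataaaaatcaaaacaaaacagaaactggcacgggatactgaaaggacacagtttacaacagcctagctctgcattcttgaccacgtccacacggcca
Sult2b1: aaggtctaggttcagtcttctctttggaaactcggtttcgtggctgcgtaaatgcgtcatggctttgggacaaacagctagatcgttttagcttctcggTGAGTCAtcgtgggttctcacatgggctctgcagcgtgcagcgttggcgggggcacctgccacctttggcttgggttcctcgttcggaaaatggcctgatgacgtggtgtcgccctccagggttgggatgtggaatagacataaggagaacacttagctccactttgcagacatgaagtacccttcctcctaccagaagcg
Plet1: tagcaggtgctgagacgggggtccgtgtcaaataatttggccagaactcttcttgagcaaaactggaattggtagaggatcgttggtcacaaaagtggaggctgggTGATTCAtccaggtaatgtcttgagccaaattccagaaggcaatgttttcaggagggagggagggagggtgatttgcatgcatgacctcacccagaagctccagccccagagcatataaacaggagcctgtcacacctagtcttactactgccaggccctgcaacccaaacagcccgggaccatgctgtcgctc

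Among the lower genes, Apoe (chr7:19696109-19699188, minus strand), the apolipoprotein by which cells release cholesterol, had the largest levels. It ran from 0 to 1930.0 TPM with a median of 18.6 on CSC1, from 0 to 5373 with a median of 9.96 on CSC2, and from 5.1 to 8166 with a median of 648 on DN. Every CD44-negative α6+ cell held the transcript, and 65 of 73 and 20 of 32 reporter-positive cells did, some of them at levels as high as the other gate. Means of 125.2 and 281.9 TPM on CSC1 and CSC2 and 1009 TPM on DN gave log2 folds of -3.0 and -1.84. Its neighbour Apoc1, another apolipoprotein, averaged 28.4 and 95.8 TPM on CSC1 and CSC2 and 118.1 TPM on DN, but its log2 folds of -2.02 and -0.30 left it short of 2-fold on CSC2. Abca1, the pump that loads cholesterol onto apolipoproteins, averaged 1.84 and 0.689 TPM on CSC1 and CSC2 and 4.74 TPM on DN (log2 folds -1.02 and -1.76). Its log2 fold over both plates was -1.21, but -0.39 against the Y-linked subset of DN, which averaged 2.27 TPM against 7.05 TPM in the Xist subset. Soat1, which turns cholesterol into stored esters, went the other way, with 77.8 and 28 TPM on CSC1 and CSC2 and 4.04 TPM on DN (log2 folds 3.97 and 2.52).

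A group of glutathione transferases was lower while Gsta4 was higher. Gstm1 was detected in 27 of 73 and 5 of 32 reporter-positive cells on CSC1 and CSC2, and in 75 of 91 CD44-negative α6+ cells, at means of 3.26 and 3.46 TPM on CSC1 and CSC2 and 47.1 TPM on DN (log2 folds -3.50 and -3.43). Gstm2 averaged 5.71 and 1.92 TPM on CSC1 and CSC2 and 30.5 TPM on DN, and the microsomal Mgst1 13.1 and 21 TPM on CSC1 and CSC2 and 52.8 TPM on DN. Gstm1 and Gstm2 are close paralogs, so reads could have been split or shared between them by the authors' counting, which was not tested. Against CD44-negative α6+ cells with Xist alone the log2 fold of Mgst1 was -0.97, and against those with Y-linked transcripts -2.14.

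The other lower genes included surface proteins, secreted proteins and proteases. Cd109, a surface protein that binds TGF-beta and dampens its signalling, was found in 40 of 73 and 12 of 32 reporter-positive cells on CSC1 and CSC2, and in 83 of 91 CD44-negative α6+ cells, at means of 2.39 and 3.03 TPM on CSC1 and CSC2 and 16.3 TPM on DN (log2 folds -2.35 and -2.10). Gas1, a surface protein that helps Hedgehog ligands to bind, averaged 5.88 and 12 TPM on CSC1 and CSC2 and 36.9 TPM on DN. Sostdc1, a secreted antagonist of BMP and WNT signals, was detected in 8 of 73 and 3 of 32 reporter-positive cells on CSC1 and CSC2, and in 59 of 91 CD44-negative α6+ cells. Scpep1, a serine carboxypeptidase, averaged 5.36 and 11.6 TPM on CSC1 and CSC2 and 112.8 TPM on DN (log2 folds -4.16 and -3.18), and Capns2, a small calpain subunit, 5.996 and 10.6 TPM on CSC1 and CSC2 and 45.8 TPM on DN. Capns2 overlaps Lpcat2 on the same strand, and whether reads were shared between them was not tested. Lpcat2 averaged 2.40 and 5.03 TPM in reporter-positive and CD44-negative α6+ cells. Slc16a14, of the monocarboxylate transporter family, was the nearest to absent from reporter-positive cells, being detected in 2 of 73 and 4 of 32 reporter-positive cells on CSC1 and CSC2, and in 59 of 91 CD44-negative α6+ cells, at means of 0.186 and 0.859 TPM on CSC1 and CSC2 and 14.2 TPM on DN. Acpp, an acid phosphatase, averaged 4.23 and 1.98 TPM on CSC1 and CSC2 and 26.6 TPM on DN, and 2610528A11Rik 94 and 119.9 TPM on CSC1 and CSC2 and 262.7 TPM on DN. Serpina3h, annotated as a transcribed pseudogene with many near-identical relatives, is uncertain: it averaged 2.14 and 0.21 TPM on CSC1 and CSC2 and 55.5 TPM on DN, but 109.5 TPM in the 42 CD44-negative α6+ cells with Xist alone and 5.22 TPM in the 44 with Y-linked transcripts alone.

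The EGF family differed at its ligands and much less at its receptors. In a list of ligands, receptors, sheddases and feedback genes, 7 of 16 described members were at least 2-fold higher and 0 lower, against 9.8% and 4.78% of all genes, and 5 were higher on both plates. The list's median log2 fold was 0.63, against 0.07 over all genes, and 0.73 and 0.37 on CSC1 and CSC2. Hbegf, shed from the surface as heparin-binding EGF, ran from 0 to 482.01 TPM with a median of 33.8 on CSC1, from 0 to 1637 with a median of 26.4 on CSC2, and from 0 to 98.6 with a median of 3.67 on DN (log2 folds 2.66 and 3.38). Tgfa, which encodes TGF-alpha, averaged 77.1 and 56.4 TPM on CSC1 and CSC2 and 13.5 TPM on DN (log2 folds 2.43 and 1.99). Areg, which encodes amphiregulin, was detected in 61 of 73 and 22 of 32 reporter-positive cells on CSC1 and CSC2, and in 33 of 91 CD44-negative α6+ cells, at means of 52 and 53.9 TPM on CSC1 and CSC2 and 8.04 TPM on DN (log2 folds 2.55 and 2.60). These ligands were present in both gates and differed in level and in how many cells held them. Ereg (epiregulin) averaged 5.89 and 6.23 TPM on CSC1 and CSC2 and 0.456 TPM on DN, Epgn (epigen) 24.4 and 27.9 TPM on CSC1 and CSC2 and 6.64 TPM on DN and Btc (betacellulin) 1.32 and 5.33 TPM on CSC1 and CSC2 and 0.274 TPM on DN. Btc was past 2-fold on CSC2 alone, and Nrg1, a neuregulin that acts through ERBB3, on CSC1 alone, at 14 and 3.96 TPM on CSC1 and CSC2 and 1.75 TPM on DN. Counted per cell, at least 4 of the 6 EGFR ligands were detected together in 71.4% of the reporter-positive gate (interval 61.8% to 79.8%), and in 20.9% of the CD44-negative α6+ gate (interval 13.1% to 30.7%). Among libraries of 6000 to 8000 genes these shares were 79.3% and 26.1%. No ligand was detected in 1 reporter-positive and 13 CD44-negative α6+ cells.

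None of the receptor genes Egfr, Erbb2 and Erbb3 passed 2-fold on either plate. Egfr averaged 34.1 and 28.1 TPM on CSC1 and CSC2 and 31.6 TPM on DN (log2 folds 0.11 and -0.17), and Erbb2, the partner receptor, 13.4 and 13.3 TPM on CSC1 and CSC2 and 16.6 TPM on DN (log2 folds -0.29 and -0.30). Erbb3 averaged 5.5 and 5.32 TPM on CSC1 and CSC2 and 10.4 TPM on DN (log2 folds -0.81 and -0.85). Adam17, the protease that sheds these ligands, had log2 folds of -0.03 and -0.36, and Errfi1, a feedback inhibitor of the receptor, of 0.69 and 0.40. Dusp6, a phosphatase induced by and acting on the MAP kinase ERK, averaged 53.8 and 29.3 TPM on CSC1 and CSC2 and 10.3 TPM on DN (log2 folds 2.28 and 1.42).

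FGF receptors stood the other way round from the EGF ligands. Fgfr3 (chr5:33721674-33737068, plus strand) ran from 0 to 195.3 TPM with a median of 3.62 on CSC1, from 0 to 57.8 with a median of 0 on CSC2, and from 0 to 607 with a median of 103.2 on DN. It was detected in 44 of 73 and 13 of 32 reporter-positive cells on CSC1 and CSC2, and in 86 of 91 CD44-negative α6+ cells, so that most CD44-negative α6+ cells held it at high level and many reporter-positive cells lacked it. Log2 folds were -2.65 and -4.0. Fgfr2 averaged 7.95 and 2.08 TPM on CSC1 and CSC2 and 21.9 TPM on DN (log2 folds -1.35 and -2.89), while Fgfr1 averaged 4.35 and 7.06 TPM on CSC1 and CSC2 and 3.84 TPM on DN. Upp1 and Fgfr3, among the first genes of either ranking, were combined per cell as a description: Upp1 without Fgfr3 was found in 39 reporter-positive and 3 CD44-negative α6+ cells, and Fgfr3 without Upp1 in 5 and 67. Both were detected in 52 reporter-positive and 19 CD44-negative α6+ cells, so the genes did not exclude each other. In the list of other growth factors and receptor tyrosine kinases 10 of 39 described members were at least 2-fold higher and 8 lower. These counts stand against 9.8% and 4.78% of all genes, and the list's median log2 fold was 0.12. Binding proteins of insulin-like growth factors differed among themselves: Igfbp2 averaged 3.22 and 3.72 TPM on CSC1 and CSC2 and 17.9 TPM on DN and Igfbp4 2.32 and 3.27 TPM on CSC1 and CSC2 and 20.5 TPM on DN, while Igfbp7 averaged 91.4 and 63.8 TPM on CSC1 and CSC2 and 15.7 TPM on DN.

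**Figure D3:**
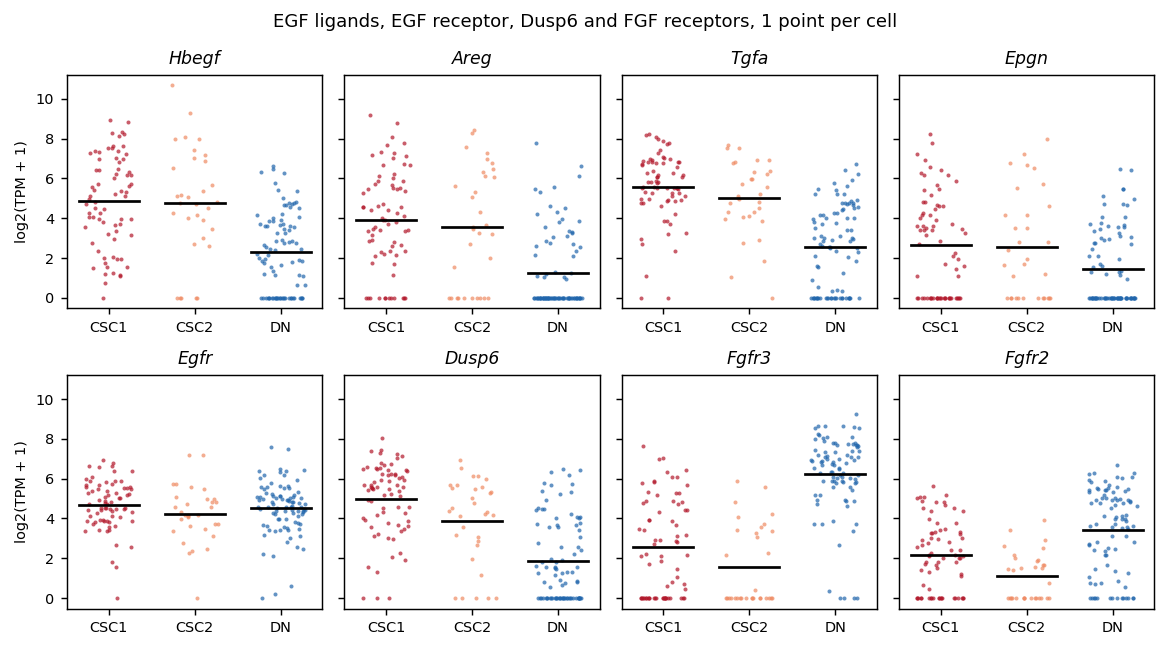
Log2(TPM + 1) per cell (1 point each; horizontal bars are means over cells) on the reporter-positive plates CSC1 and CSC2 and the CD44-negative α6+ plate DN. Ligand means lie higher on CSC1 and CSC2 than on DN, Egfr means lie close together, and Fgfr3 and Fgfr2 means are highest on DN.

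Genes of the actin cytoskeleton lay together on the higher side. 16 of 51 described members were at least 2-fold higher and 0 lower, against 9.8% and 4.78% of all genes. Of them 10 were higher on both plates, and 48 had a positive log2 fold. The median was 0.82, from 0.90 and 0.35 on CSC1 and CSC2. Tpm1, a tropomyosin that stabilises filaments, ran from 7.63 to 2312 TPM with a median of 173.8 on CSC1, from 0 to 1294 with a median of 46.4 on CSC2, and from 0 to 522.6 with a median of 16.5 on DN (log2 folds 2.95 and 2.38). It was detected in 73 of 73 and 29 of 32 reporter-positive cells on CSC1 and CSC2, and in 79 of 91 CD44-negative α6+ cells, so both its level and the share of cells with it were higher in the reporter-positive gate. Cnn3, a calponin that binds actin, was detected in 68 of 73 and 22 of 32 reporter-positive cells on CSC1 and CSC2, and in 27 of 91 CD44-negative α6+ cells (log2 folds 3.29 and 2.06). Rhoc, a small GTPase linked to cell motility, averaged 27.2 and 16.5 TPM on CSC1 and CSC2 and 2.36 TPM on DN (log2 folds 3.07 and 2.38), and Lcp1, a plastin that bundles filaments, 7.65 and 4.51 TPM on CSC1 and CSC2 and 0.126 TPM on DN. The filament proteins themselves moved less: Actb averaged 3519.8 and 1965 TPM on CSC1 and CSC2 and 1586 TPM on DN (log2 folds 1.15 and 0.31) and Actg1 1007 and 1071 TPM on CSC1 and CSC2 and 680.5 TPM on DN. Of 8 pericyte or muscle markers, 3 in reporter-positive and 2 in CD44-negative α6+ cells reached a mean of 1 TPM, with Kcnj8 at 0 and Myh11 detected in no cell. Their summed level per cell in the reporter-positive and CD44-negative α6+ gates had medians of 16.2 and 11.8 TPM and highest values of 236.2 and 327.5 TPM. Acta2 had the largest means in these gates, 20.7 and 11.1 TPM, but was detected in 47 and 25 cells. Notch3 averaged 9.84 and 7.83 TPM and was detected in 75 and 53 cells. Among integrins other than α6, 4 of 8 were higher over both plates together, but none on both plates. Itga5, a fibronectin receptor chain, had log2 folds of 2.28 and 0.49, and Itgb1 of 1.40 and 0.59. Of the annexins, which bind membranes with calcium, 3 of 9 were higher and none lower. Anxa1 averaged 431.6 and 467.2 TPM on CSC1 and CSC2 and 127.9 TPM on DN (log2 folds 1.75 and 1.86).

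At the surface, 6 of 15 described members were at least 2-fold higher and 0 lower in the list of Ly6 and uPAR-like proteins. In the list of tetraspanins and other glycoproteins, 8 of 30 described members were at least 2-fold higher and 1 lower. Over all genes, the shares were 9.8% higher and 4.78% lower. Plaur, the urokinase receptor, was detected in 44 of 73 and 14 of 32 reporter-positive cells on CSC1 and CSC2, and in 8 of 91 CD44-negative α6+ cells, at means of 23.1 and 6.03 TPM on CSC1 and CSC2 and 0.384 TPM on DN (log2 folds 4.12 and 2.35). Mcam, an adhesion protein also called CD146, averaged 17.3 and 11.4 TPM on CSC1 and CSC2 and 1.56 TPM on DN, with 46 reporter-positive and 6 CD44-negative α6+ cells positive. Cd82, a tetraspanin that slows migration, averaged 42.7 and 32.2 TPM on CSC1 and CSC2 and 6.27 TPM on DN (log2 folds 2.59 and 2.19), and Cd81, another tetraspanin, 164.7 and 161.96 TPM on CSC1 and CSC2 and 56.3 TPM on DN (log2 folds 1.53 and 1.51). Epcam, an adhesion protein of simple and regenerating epithelia, averaged 74.1 and 43.4 TPM on CSC1 and CSC2 and 14.3 TPM on DN (log2 folds 2.30 and 1.54). Cd109 was the single member lower.

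In fatty acid and sphingolipid metabolism 12 of 43 described members were at least 2-fold higher and 2 lower, against 9.8% and 4.78% of all genes, among which higher calls also outnumber lower ones, and 8 and 2 did so on both plates, with a median log2 fold of 0.51. Fads3, a desaturase family member, was detected in 64 of 73 and 22 of 32 reporter-positive cells on CSC1 and CSC2, and in 22 of 91 CD44-negative α6+ cells (log2 folds 2.60 and 2.42). Fads2, which makes polyunsaturated fatty acids, averaged 13 and 2.65 TPM on CSC1 and CSC2 and 0.822 TPM on DN. Fabp4, the fatty acid carrier of fat cells, averaged 21.3 and 206.6 TPM on CSC1 and CSC2 and 2.96 TPM on DN, but was detected in 27 of 73 and 12 of 32 reporter-positive cells on CSC1 and CSC2, and in 18 of 91 CD44-negative α6+ cells, so its means rest on a minority of cells. Fasn, the fatty acid synthase, had log2 folds of 0.79 and 0.64. In cholesterol synthesis and uptake 4 of 28 described members were at least 2-fold higher and 1 lower, near those shares, with a median of 0.49. Msmo1, a sterol oxidase, averaged 43.5 and 50.2 TPM on CSC1 and CSC2 and 19 TPM on DN (log2 folds 1.15 and 1.35). Among enzymes of lipid mediators 8 of 24 described members were at least 2-fold higher and 3 lower. Pla2g7, which breaks down platelet-activating factor, averaged 18.3 and 7.58 TPM on CSC1 and CSC2 and 2.81 TPM on DN and Alox12, a lipoxygenase, 2.51 and 2.86 TPM on CSC1 and CSC2 and 0.285 TPM on DN.

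Aldehyde, alcohol and P450 enzymes split, with 4 of 27 higher and 5 lower, against 9.8% and 4.78% of all genes. Adh7, an alcohol dehydrogenase that oxidises retinol, was detected in 1 of 73 and 2 of 32 reporter-positive cells on CSC1 and CSC2, and in 37 of 91 CD44-negative α6+ cells, at means of 0.643 and 0.746 TPM on CSC1 and CSC2 and 14.7 TPM on DN. Cyp4b1, a P450 enzyme, was detected in no reporter-positive cell, which by the exact interval allows a share of up to 3.45%, and in 16 CD44-negative α6+ cells. Aldh1a3, which makes retinoic acid, went the other way, at 7.56 and 8.88 TPM on CSC1 and CSC2 and 0.902 TPM on DN. In serine, one-carbon and proline synthesis 1 of 21 described members were at least 2-fold higher and 4 lower, with the 4 lower on both plates and a list median of -0.38. Psat1, the second enzyme of serine synthesis, averaged 47.3 and 51.1 TPM on CSC1 and CSC2 and 124.003 TPM on DN (log2 folds -1.37 and -1.26), and Phgdh, the first, 25.6 and 23.7 TPM on CSC1 and CSC2 and 49.7 TPM on DN (log2 folds -0.93 and -1.04). Shmt1, which passes serine's carbon to folate, averaged 7.46 and 10 TPM on CSC1 and CSC2 and 25.8 TPM on DN (log2 folds -1.67 and -1.28), and Cbs, which joins serine to homocysteine, was detected in 1 reporter-positive and 20 CD44-negative α6+ cells. Aldh1l1, a folate enzyme, was the member higher, at 17.9 and 15.5 TPM on CSC1 and CSC2 and 5.02 TPM on DN. Glul, the glutamine synthetase, was also lower and averaged 5.78 and 11.4 TPM on CSC1 and CSC2 and 38.5 TPM on DN. Of the transporters of amino acids, sugars and monocarboxylates 2 of 20 were higher, at the share of all genes, and 4 lower. Slc6a9, a glycine transporter, averaged 5.32 and 7.29 TPM on CSC1 and CSC2 and 18.1 TPM on DN and Slc16a1, which carries lactate, 2.5 and 2.48 TPM on CSC1 and CSC2 and 7.23 TPM on DN, while Slc2a1, the main glucose transporter, was near level with log2 folds of -0.26 and -0.24.

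Among ion channels and pumps 6 of 36 described members were at least 2-fold higher and 5 lower, against 9.8% and 4.78% of all genes. Kcnn4, a calcium-activated potassium channel, was detected in 44 of 73 and 12 of 32 reporter-positive cells on CSC1 and CSC2, and in 3 of 91 CD44-negative α6+ cells, at means of 20.2 and 12.2 TPM on CSC1 and CSC2 and 1.13 TPM on DN (log2 folds 3.32 and 2.63). Clic3, an intracellular chloride channel protein, averaged 39 and 78.1 TPM on CSC1 and CSC2 and 11.3 TPM on DN. Clca3a2, of the calcium-activated chloride channel regulators, which have close paralogs, averaged 0.488 and 1.89 TPM on CSC1 and CSC2 and 69.4 TPM on DN, and was detected in 8 reporter-positive and 30 CD44-negative α6+ cells. For iron, Heph, a copper oxidase that helps iron leave cells, was detected in 1 reporter-positive and 23 CD44-negative α6+ cells, and Steap1, a surface reductase, in 71 reporter-positive and 19 CD44-negative α6+ cells.

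Of the TNF family and its signalling, 6 of 21 described members were at least 2-fold higher and 1 lower, against 9.8% and 4.78% of all genes. Besides Tnfrsf23, Tnfaip2, a gene induced by TNF, averaged 12.5 and 16.1 TPM on CSC1 and CSC2 and 1.68 TPM on DN (log2 folds 2.33 and 2.67) and Tnf itself 7.61 and 3.36 TPM on CSC1 and CSC2 and 0.71 TPM on DN, in 48 reporter-positive and 8 CD44-negative α6+ cells. Tnfrsf10b, the TRAIL receptor that signals death, averaged 11.3 and 5.32 TPM on CSC1 and CSC2 and 2.06 TPM on DN (log2 folds 2.0 and 1.05). Tnfrsf19, a receptor known from hair follicle stem cells, was the member lower, detected in 3 reporter-positive and 23 CD44-negative α6+ cells. The interleukin 1 family split into 3 higher and 3 lower of 14. Il1a, the alarm cytokine of keratinocytes, was detected in 42 of 73 and 13 of 32 reporter-positive cells on CSC1 and CSC2, and in 4 of 91 CD44-negative α6+ cells. Il1r2, the decoy receptor for it, was detected in 2 and 22 cells of the reporter-positive and CD44-negative α6+ gates, and Il18 in 19 and 41. Il1rl2, the receptor for interleukin 36, averaged 6.58 and 9.43 TPM on CSC1 and CSC2 and 24 TPM on DN. Il1rn, the receptor antagonist, was level, with log2 folds of 0.08 and 0.04. Of antimicrobial peptides 7 of 13 described members were at least 2-fold higher and 1 lower, against 9.8% and 4.78% of all genes. The list's median log2 fold was 1.06, but 0.28 by the difference in mean log2(TPM + 1). Some means rest on few cells, as for Defb14, with up to 3047 TPM in a cell of CSC2. Defb14 and Wfdc2, given next, reached a mean of 1 TPM in the reporter-positive gate alone. Defb14, a beta defensin, was detected in 8 of 73 and 7 of 32 reporter-positive cells on CSC1 and CSC2, and in 0 of 91 CD44-negative α6+ cells, a count of 0 that by the exact interval allows a share of up to 3.97%. Wfdc2, a protease inhibitor of mucosal surfaces, was detected in 36 reporter-positive and 5 CD44-negative α6+ cells, and averaged 16.1 and 13.9 TPM on CSC1 and CSC2 and 0.458 TPM on DN.

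The WNT, NOTCH and Hedgehog lists had members past 2-fold on both sides. Their lower members were few but above the share of all genes. The WNT list had 4 of 32 higher and 4 lower, against 9.8% and 4.78% of all genes, with none higher on both plates. Wnt16, a WNT ligand, was detected in 1 of 73 and 1 of 32 reporter-positive cells on CSC1 and CSC2, and in 34 of 91 CD44-negative α6+ cells, and Wnt3, another, in 5 and 30 cells of the reporter-positive and CD44-negative α6+ gates. NOTCH genes had 3 higher and 3 lower of 21: Nrarp, a feedback gene, averaged 25.4 and 31.4 TPM on CSC1 and CSC2 and 10.5 TPM on DN, and Dll1, a ligand, 6.51 and 2.86 TPM on CSC1 and CSC2 and 14.4 TPM on DN, while the receptor Notch1 had log2 folds of 0.57 and 0.41. The Hedgehog list had 1 higher and 2 lower of 9. In it Boc, a co-receptor like Gas1, was detected in 28 reporter-positive and 58 CD44-negative α6+ cells, and the ligand Dhh in 35 and 2. Gli1, the pathway's target, averaged 0.0184 and 0.0775 TPM in reporter-positive and CD44-negative α6+ cells. Among transcription factors of epithelia 7 of 58 were higher and 6 lower. Prdm1, which represses early genes in late keratinocytes, averaged 4.09 and 8.92 TPM on CSC1 and CSC2 and 0.264 TPM on DN (log2 folds 2.01 and 2.97) and Pitx1, a limb homeobox gene, 3.49 and 6.02 TPM on CSC1 and CSC2 and 0.749 TPM on DN. Barx2, a homeobox factor of the hair follicle, averaged 2.94 and 3.88 TPM on CSC1 and CSC2 and 11.2 TPM on DN (log2 folds -1.64 and -1.33) and Sox7 1.76 and 3.72 TPM on CSC1 and CSC2 and 8.83 TPM on DN. Trp63, the master factor of stratified epithelia, had log2 folds of -0.08 and -1.03 and Klf4 of 0.16 and -0.01. The AP-1 motif occurred in windows of 3 of the 12 higher ranked genes that had a window. Of all genes with a window, 2425 of 27025 had it, and a link to levels of the AP-1 family was not tested. The AP-1 family had 1 of 10 higher, Fosl1, at 19.2 and 11.3 TPM on CSC1 and CSC2 and 6.63 TPM on DN (log2 folds 1.40 and 0.69). Fos and Jun were near level over both plates, at 145.4 and 62.9 TPM in reporter-positive cells and 155.8 and 70.2 TPM in CD44-negative α6+ cells, but by the difference in mean log2(TPM + 1) they stood higher in reporter-positive cells, by 0.76 and 0.48. Of imprinted and oncofetal genes 6 of 12 described members were at least 2-fold higher and 3 lower. Mest, a paternally expressed gene, was detected in 19 reporter-positive cells and 1 CD44-negative α6+ cell, and Slc22a18, a neighbour of Phlda2, in 53 of 73 and 21 of 32 reporter-positive cells on CSC1 and CSC2, and in 24 of 91 CD44-negative α6+ cells. Ascl2, imprinted in the placenta, was detected in 6 reporter-positive and 15 CD44-negative α6+ cells. Hlf, a clock output factor, was detected in 1 of 73 and 1 of 32 reporter-positive cells on CSC1 and CSC2, and in 29 of 91 CD44-negative α6+ cells (log2 folds -2.25 and -2.25).

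Among housekeeping and stress lists, the tRNA synthetases, heat shock proteins and proteasome had medians of -0.04, 0.10 and 0.19, against 0.07 over all genes, and lysosome, autophagy, Hippo targets and the integrated stress response of 0.26, 0.26, 0.35 and 0.36. Over all genes, 9.8% were at least 2-fold higher and 4.78% lower. Of the proteasome 1 of 37 members was at least 2-fold higher and none lower, and of the tRNA synthetases 0 of 20 was higher or lower. Higher members of the heat shock, integrated stress response, lysosome and autophagy lists, given next, came near the share of all genes. Heat shock proteins had 2 of 20 higher, one of them Hspb1, and Hippo and YAP targets 1 higher and 2 lower of 23. In the integrated stress response 4 of 29 were higher: Sesn2, a stress-induced brake on the growth kinase mTORC1, averaged 6.8 and 6.62 TPM on CSC1 and CSC2 and 2.28 TPM on DN (log2 folds 1.25 and 1.21), Ddit4, another such brake, 14.2 and 14.6 TPM on CSC1 and CSC2 and 6.3 TPM on DN, and the factor Atf4 had log2 folds of 0.06 and -0.31. Lysosomal genes had 4 of 32 higher, and Ctsl, a cathepsin protease, averaged 145.003 and 98 TPM on CSC1 and CSC2 and 22.7 TPM on DN (log2 folds 2.62 and 2.06). The autophagy list, which does not hold Atg9b, had 2 of 17 higher, the cargo receptor Sqstm1 and Wipi1, a phosphoinositide-binding protein of the forming autophagosome, at 30.8 and 36.2 TPM on CSC1 and CSC2 and 13.2 TPM on DN (log2 folds 1.16 and 1.39). The usual lists differed too, and more than most of these: 25 of 33 matrix and protease genes were higher and 1 lower, 21 of 45 stress and suprabasal keratinocyte genes were higher and 8 lower, 5 of 89 cycle genes were higher and 17 lower, and 0 of 43 interferon and MHC genes were higher and 12 lower.

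**Figure D4:**
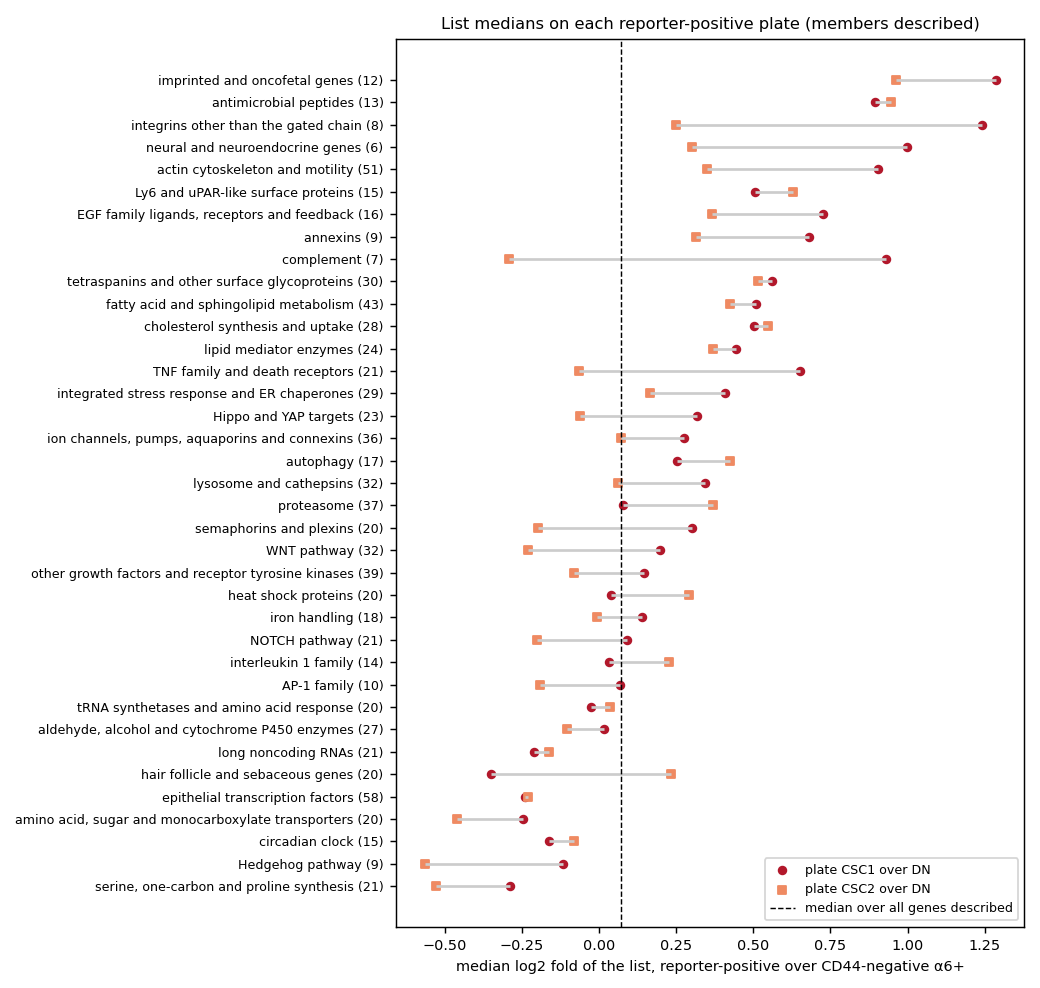
Median log2 fold over DN of each gene list with at least 5 described members (number in brackets), for plate CSC1 (circles) and plate CSC2 (squares), with the dashed line at 0.07, the median over all genes described. Complement, integrins and the neural list lie far apart between the plates, and the proteasome and tRNA synthetase lists lie close to the line on CSC1.

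The reporter-positive plates did not always agree. 28 genes were at least 2-fold higher on one plate and at least 2-fold lower on the other, against DN. Those higher on CSC1 included Ndrg1, a stress-induced cytoplasmic protein, with 124.1 and 17.2 TPM on CSC1 and CSC2 and 39.3 TPM on DN, and the proteases Mmp9, with 93.6 and 4.01 TPM on CSC1 and CSC2 and 10.9 TPM on DN, and Mmp13. Higher on CSC2 was Fam25c, with 47.2 and 524.2 TPM on CSC1 and CSC2 and 110.04 TPM on DN. On the rescaled TPM, log2 folds on CSC2 were short of 2-fold for Pla2g7 (0.95), Aldh1l1 (0.91), Ddit4 (0.86) and Wipi1 (0.94), and past it for Apoc1 (-1.08), Erbb3 (-1.19) and Slc2a1 (-1.05). Btc then passed 2-fold on CSC1 as well (1.77). The genes that differed between the plates were chosen after their values were seen, and whether the plates hold cells of different animals was not tested. CSC2 kept 32 of 72 wells and CSC1 73 of 86, and the median spike-in share was 0.615% and 0.243% of TPM.

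Within the CD44-negative α6+ plate, the sex-linked subsets changed the size of several differences and, for a few, the call. Against the 44 cells with Y-linked transcripts and no Xist, all 30 ranked genes stayed at least 2-fold apart in the same direction. Against the 42 cells with Xist and no Y-linked transcript, 27 did, and Apoc1 (-0.71), 2610528A11Rik (-0.65) and Mgst1 fell short. Among the other named genes past 2-fold, log2 folds against the Y-linked subset were short of it for Nrarp (0.80), Dll1 (-0.77), Slc16a1 (-0.79), Abca1 (-0.39) and Il18 (-0.74). Against the Xist subset they were short of it for Sox7 (-0.87), Barx2 (-0.62), Slc6a9 (-0.90), Sesn2 (0.91), Fosl1 (0.93), Ndrg1 (0.79) and Itgb1 (0.92). Sostdc1 averaged 3.45 TPM in reporter-positive cells, against 104.03 TPM in the Y-linked subset and 25.9 TPM in the Xist subset. Hoxa7, a homeobox gene, averaged 0.0923 TPM in reporter-positive cells and 8.09 TPM in CD44-negative α6+ cells, but 16.9 TPM in the Xist subset and 0 TPM in the Y-linked subset, so that its difference between the gates was carried by the Xist subset. As the labels name no animal, sex, animal and tumour cannot be told apart within the plate.

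**Figure D5:**
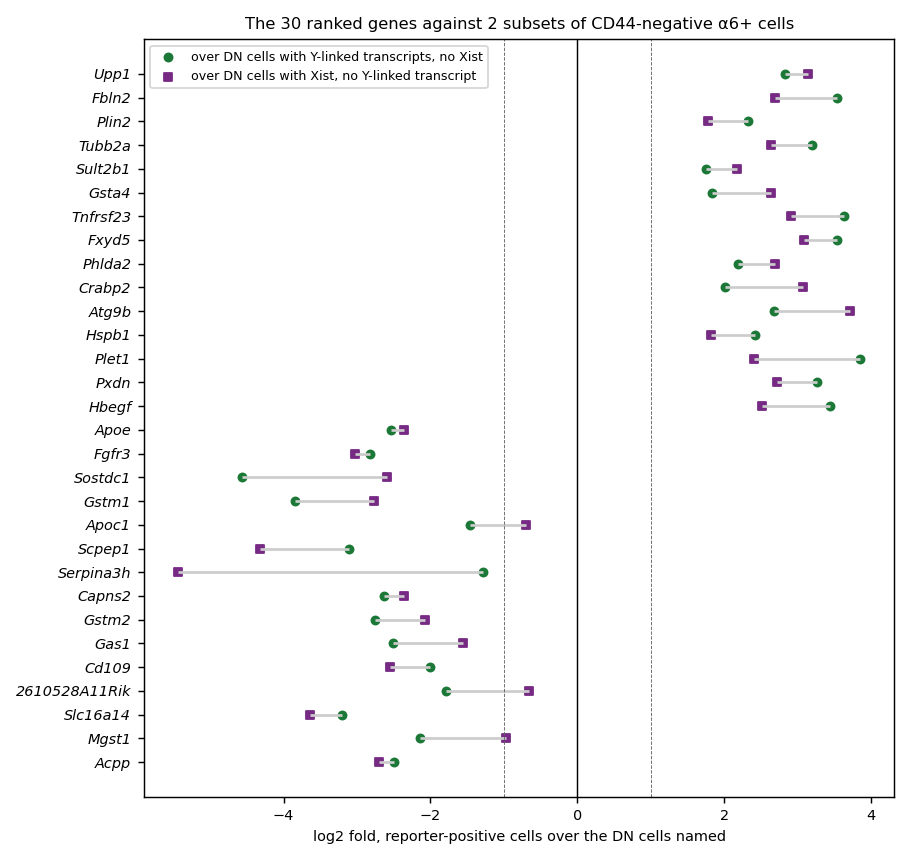
Log2 fold of the 30 ranked genes in reporter-positive cells over the 44 DN cells with Y-linked transcripts only (circles) and over the 42 with Xist only (squares), with dashed lines at 2-fold. All circles lie outside the dashed lines on the gene's own side, and Serpina3h has the widest gap between its symbols.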

How the data were processed

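Tumour cells of mouse cutaneous squamous carcinoma were sorted singly into wells and read as full-length cDNA. The authors deposited TPM per gene and library; per the submitters' processing notes, the tools were RSEM 1.2.30 with Bowtie2 2.2.9, and the build was mm10. The sources used here do not say how reads that map to several genes were treated. The tables held 46517 gene rows and 92 spike-in rows, and 46005 gene identifiers were found in GENCODE M21. Rows counted as ribosomal (8 of them) held a median of 72.4%, 66.1% and 72.5% of TPM on CSC1, CSC2 and DN, and every other TPM is a share of the remainder.

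Libraries in which fewer than 2000 genes reached 1 TPM were left out, which removed 13 of 86 wells on CSC1, 40 of 72 on CSC2 and 5 of 96 on DN. Genes with a mean of at least 1 TPM in either gate, outside spike-in and ribosomal rows, were described. Log2 folds are log2((mean TPM + 1) / (mean TPM + 1)), reporter-positive over CD44-negative α6+. TPM keeps no read counts, so the depth of each library is unknown, and the number of detected genes stood in for it. Cells are not replicates and each gate was 1 sample, so no test was run. Repeat libraries were sought by Pearson r of log2(TPM + 1) over gene rows, as mutual best matches by a margin of 0.05 or at an r of at least 0.88.

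Ranked genes needed an annotation, a mean of at least 5 TPM in one gate, detection in at least 50% of the cells of the higher gate, and no membership of the usual lists or of keratin, collagen, laminin, MMP, MHC, histone, ribosomal protein or mitochondrial names. In each list, up to 4 members past 2-fold on both plates and 1 or 2 defining members were named, and any other gene was named after its values were seen. Members and lists were chosen with earlier results of these data known. List members were taken once per symbol, from the annotated row with the higher mean. Alternatives comprised 15 planned and 1 chosen after seeing the data. Python 3.11.15, numpy 2.4.6, pandas 2.3.3, scipy 1.17.1 and matplotlib 3.10.9 were used, and the fold code was tested on simulated data.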

Additional observations from a re-analysis of the deposited data

How the results depend on the processing

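No paired analysis was possible because the labels name no animal by which cells of the plates could be paired. The counts of genes past 2-fold depended on the scale and on the libraries without a repeat partner, and are given below as percent of the counts on the scale reported, which were 1164 higher, 568 lower, 4.33% of genes higher on both plates and 3.45% lower on both. With a pseudocount of 0.1, the count was 165.1% of that reported for genes lower, 174.1% for genes higher on both plates, 160.5% for genes lower on both plates. With a pseudocount of 5, the count was 36.9% of that reported for genes higher, 24.3% for genes lower, 38.1% for genes higher on both plates, 22.2% for genes lower on both plates. With a mean of at least 5 TPM required, the count was 62.7% of that reported for genes higher, 51.1% for genes lower, 46.3% for genes lower on both plates. With TPM rescaled without ribosomal and spike-in rows, the count was 179.3% of that reported for genes higher, 239.3% for genes lower, 240.5% for genes lower on both plates. By the difference in mean log2(TPM + 1), the count was 60.1% of that reported for genes higher, 38.4% for genes lower, 34.9% for genes lower on both plates. With the 8 reporter-positive libraries without a repeat partner alone, the count was 617% of that reported for genes lower. The lower pseudocount lets weakly expressed genes pass, and the higher pseudocount and filter remove them by construction. The rescaling also moved the median log2 fold on CSC2, from 0.05 to -0.21. The causes of the counts with the rescaling and with 8 libraries were not tested. The other settings run kept every count within 1.5 times. Of the named genes past 2-fold, 68.1% stayed so with these 8 libraries alone, 73.9% with a pseudocount of 5, 77.5% by the difference in mean log2(TPM + 1), 95.7% in libraries of 6000 to 8000 genes, 92.8% without plate CSC1, 98.6% without plate CSC2, 99.3% with the repeat partners, 94.2% against the Y-linked subset and 89.9% against the Xist subset, which was chosen after seeing the data. The share with the repeat partners was close to fixed in advance, as most of these are near-identical libraries. Log2 folds turned round without plate CSC1 for Ndrg1 (-1.15) and against the Y-linked subset for Hoxa7 (0.13). With the 8 libraries without a repeat partner alone they turned round for the list of antimicrobial peptides (-0.58), the list of imprinted and oncofetal genes (-0.29), Tubb2a (-0.40), Prdm1 (-0.34), Lcp1 (-0.17), Pla2g7 (-0.64), Alox12 (-0.27), Aldh1a3 (-0.71), Dnajb9 (-0.17), Lypd5 (-1.73), Lypd3 (-0.37), Tnfaip2 (-0.71), Defb4 (-0.47), Bpifc (-0.58), Slc22a18 (-0.99), Mest (-0.13), Tubb3 (-0.34), Tnfrsf22 (-0.31), Tnfrsf10b (-0.25), Fosl1 (-0.69), Hmox1 (-2.39), Ndrg1 (-0.52). TPM hold no depth, so what depth limits cannot be computed, and a transcript at 0 in a cell may have been missed.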

Other observations

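Of the 15 genes that ranked highest in reporter-positive cells, Phlda2 and Tnfrsf23 lie in a stretch of distal chromosome 7. The stretch was drawn after their values were seen and begins with Cd81, itself a gene past 2-fold. In the stretch chr7:143052739-143756985 (mm10), 11 genes were described and 4 were at least 2-fold higher on both plates, against 4.33% of all genes, a comparison that the choice of the stretch favours. In order along the chromosome, Cd81, a tetraspanin, averaged 164.7 and 161.96 TPM on CSC1 and CSC2 and 56.3 TPM on DN (log2 folds 1.53 and 1.51). Slc22a18, of the organic cation transporter family, averaged 14.8 and 12 TPM on CSC1 and CSC2 and 3.04 TPM on DN (log2 folds 1.97 and 1.68), and its neighbour Phlda2 22.3 and 23.1 TPM on CSC1 and CSC2 and 3.22 TPM on DN (log2 folds 2.47 and 2.51). Tnfrsf23 averaged 75.9 and 35.7 TPM on CSC1 and CSC2 and 5.65 TPM on DN (log2 folds 3.53 and 2.47), and its paralog Tnfrsf22 13 and 9.54 TPM on CSC1 and CSC2 and 5.04 TPM on DN (log2 folds 1.22 and 0.80), short of 2-fold on CSC2. These genes did not form an unbroken block. Nap1l4, Cars and Tnfrsf22 lie between Phlda2 and Tnfrsf23, and Nap1l4 averaged 15.8 and 17.7 TPM on CSC1 and CSC2 and 16.3 TPM on DN (log2 folds -0.04 and 0.11) and Cars 23.1 and 25.9 TPM on CSC1 and CSC2 and 14.4 TPM on DN (log2 folds 0.65 and 0.81). Tssc4, beside Cd81, averaged 10.3 and 7.97 TPM on CSC1 and CSC2 and 7.63 TPM on DN (log2 folds 0.38 and 0.06), and Osbpl5, at the other end, 27.8 and 22.9 TPM on CSC1 and CSC2 and 24.2 TPM on DN (log2 folds 0.19 and -0.07). Kcnq1, a potassium channel gene of the same imprinted region, was past 2-fold on CSC1 alone, at 2.92 and 0.722 TPM on CSC1 and CSC2 and 0.303 TPM on DN (log2 folds 1.59 and 0.40). Tnfrsf22 and Tnfrsf23 are similar in sequence, and the sources used here do not say how reads were split between them. Over whole chromosomes with at least 100 described genes, median log2 folds lay between -0.01 and 0.12, and chromosome 7 had 0.09.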
